A study of Mus musculus with 12 samples.

Results

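Iron storage and transport genes (9 of the 39756 genes in the count table) were followed in the ischemic hemispheres of mice after transient middle cerebral artery occlusion (tMCAO). They were chosen by name, as the genes whose products store, carry, import, export or oxidise iron: Fth1, Ftl1, Trf, Tfrc, Slc11a2, Slc11a1, Slc40a1, Cp and Hamp. RNA sequencing covered 12 mice, C57BL/6J in the labels with no engineered allele named, and male and aged 9 to 10 weeks by the study's methods, 4 in each of 3 groups. Sham mice had sham surgery. Vehicle mice had tMCAO and saline. LJP mice had tMCAO and Laminaria japonica polysaccharide (LJP), a polysaccharide preparation from a brown seaweed. By the study's methods the artery was blocked by a filament for 45 min and then reopened, Sham mice were given saline too, and dosing by gavage began 14 days before surgery. The study's text selects its middle dose, LJP-M, for the experiments after its dose comparison, and it does not state the dose or the time after surgery beside the sequencing.

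Iron in the brain arrives bound to transferrin, enters cells through the transferrin receptor and a divalent metal transporter, and is either used, exported through ferroportin or locked into ferritin shells. Free ferrous iron reacts with peroxides, so cells match storage and uptake to the iron they hold. They do this largely after transcription: iron regulatory proteins bind hairpins called iron-responsive elements (IREs) in the untranslated regions of some of these mRNAs, where they block translation of the mRNA or protect it from decay. The values below are mRNA levels, which do not measure ferritin protein or iron.

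Of the 9 mRNAs, 4 carried an IRE by sequence, and these hairpins are shown because they are the elements through which iron regulatory proteins act on ferritin, transferrin receptor and ferroportin mRNA. The longest transcript of each gene in GENCODE M21 (GRCm38) was searched on the transcribed strand for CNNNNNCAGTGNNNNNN, in which the 5 bases before and after the 6-base loop had to pair, with G-T pairs allowed. In the lines that follow, capitals mark the unpaired C and the 6 bases of the loop. The sites lie in the 5′ UTR of Fth1 (chr19:9982732-9982760, plus strand), Ftl1 (chr7:45459779-45459807, minus strand) and Slc40a1 (chr1:45925465-45925493, minus strand), and in the 3′ UTR of Tfrc (plus strand) at chr16:32631219-32631247, chr16:32631598-32631626, chr16:32631663-32631691 and chr16:32631710-32631738.
Fth1: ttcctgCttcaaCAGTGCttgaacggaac
Ftl1: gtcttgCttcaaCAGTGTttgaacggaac
Slc40a1: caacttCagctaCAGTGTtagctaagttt
Tfrc site 1: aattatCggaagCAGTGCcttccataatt
Tfrc site 2: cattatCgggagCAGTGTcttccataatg
Tfrc site 3: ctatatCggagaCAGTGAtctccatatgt
Tfrc site 4: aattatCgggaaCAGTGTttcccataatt
The same search matched the 5′ UTR of 21 of 20262 genes (0.104%) and the 3′ UTR of 117 of 20828 genes (0.562%). No match was found in the UTRs of the longest transcripts of Trf, Cp, Slc11a1, Slc11a2 and Hamp. That says only that this motif with all 5 pairs is not in those UTRs, and hairpins that pair otherwise would be missed.

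Total counts per mouse lay between 17960353 and 22216315, and 17558 genes had enough counts to be tested. Levels are given as CPM, which are counts scaled to a common library size, normalized by the trimmed mean of M-values (TMM). Differences are log2 fold changes from edgeR's quasi-likelihood test over all 12 mice, with p-values adjusted over all 17558 genes by the Benjamini-Hochberg method, and a gene was counted as changed at an adjusted p below 0.05. Of the 9 members, 8 were tested, and Hamp was removed by the filter on low counts. The labels number the mice within a group and do not say whether their RNA was prepared together, apart from 1 batch name that all 12 share. In such whole-tissue RNA, fewer cells of a type and less RNA per cell cannot be told apart. Brain cell markers were present in all mice, with the sum of 8 neuron markers at 6204 to 6919 CPM in Sham, 5241, 3943, 6142 and 5941 in Vehicle mice 1 to 4, and 5925 to 7024 in LJP. Of these 8, Syt1 (-0.60 on the log2 scale) and Snap25 (-0.53) fell in Vehicle against Sham. Vehicle mouse 2, lowest for this sum, was also the highest mouse for 6 members, and the part of these cells in the results was not tested.

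The Vehicle mice held more mRNA for iron storage and for transferrin than the Sham mice. No member fell, where 17.3% of all genes fell, and 8 tested members are too few to set these apart. Of the 8 tested, 5 members rose: Fth1, Ftl1, Trf, Cp and Slc11a1. Over all genes tested, 22.7% rose and 39.9% changed in either direction in the same comparison. The members' median log2 fold change was 1.47, with the median over all genes at 3.54e-05. The CPM of the Vehicle and Sham mice did not overlap, with Vehicle higher, for those same 5 members, and that was so for 20.7% of all genes tested. Tfrc, Slc11a2 and Slc40a1 did not pass the test.

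In the LJP mice, no member passed the adjusted test against Vehicle. With edgeR, 0 of the 8 members were called, 5 had an unadjusted p below 0.05 and all 5 were lower in LJP, with DESeq2 4 were called, and 4 passed the study's thresholds when applied to the edgeR values (absolute log2 fold change over 0.58, unadjusted p below 0.01). The background was 0.0228% of all genes for the edgeR call, 17.4% for an unadjusted p below 0.05 with a lower level, 9.36% for a DESeq2 call with a lower level, and 6.97% for the study's thresholds on the edgeR values. The members' median log2 fold change was -0.64, with -0.0017 over all genes. Against Sham, 3 members were higher in LJP (Ftl1, Trf and Slc11a1), where 3.85% of all genes were higher, and none was lower, where 0.900% were. The median there was 0.63, with 0.0032 over all genes. The comparisons share mice, so their values are set side by side and are not independent of each other.

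**Figure D1:**
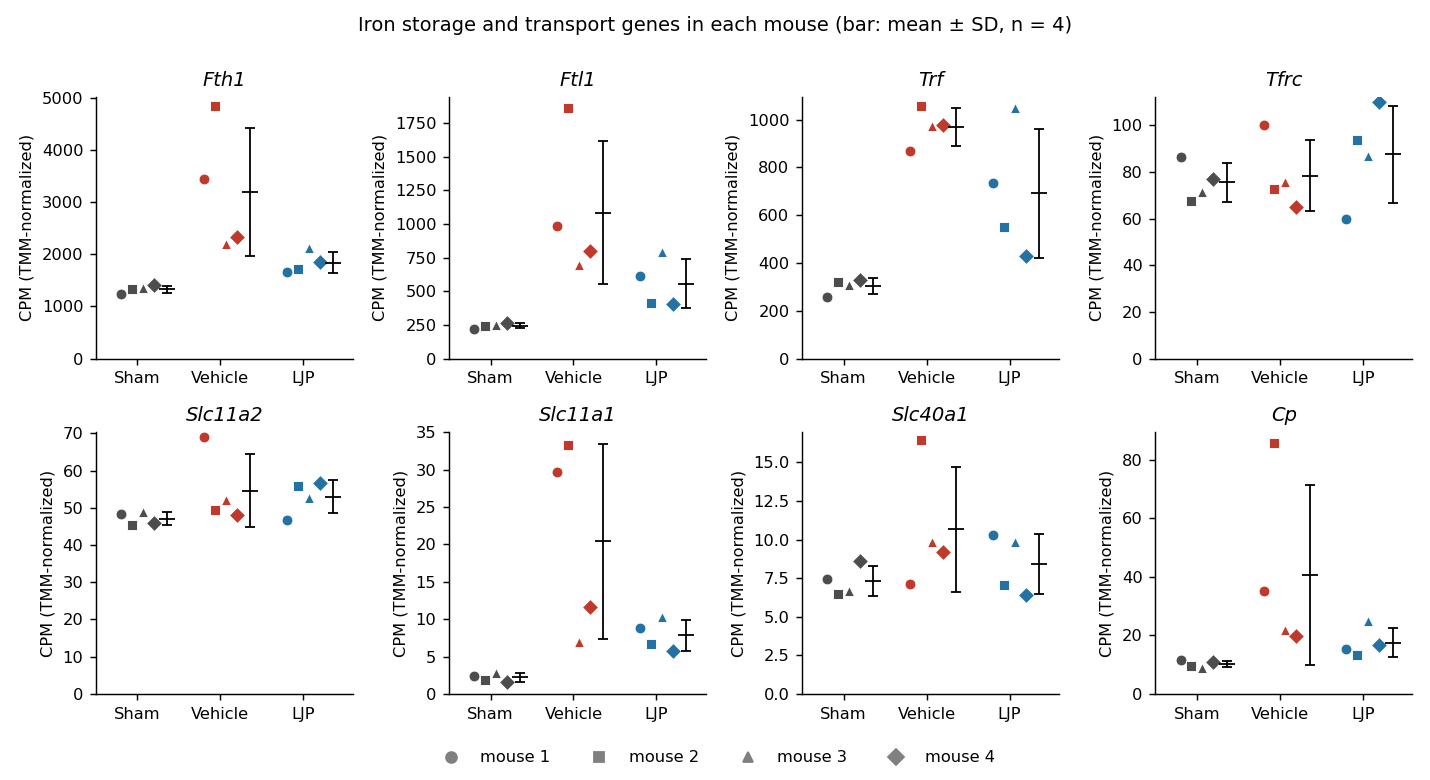
CPM of the 8 tested members in each mouse (vertical axes, linear and from 0), by group, with the marker shape giving the mouse number and the bar the mean ± SD of 4 mice. All 4 Vehicle mice lie above all 4 Sham mice for Fth1, Ftl1, Trf, Slc11a1 and Cp, and Vehicle mouse 2 has the highest CPM of all mice for Fth1, Ftl1, Trf, Slc11a1, Slc40a1 and Cp.

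Fth1 (Entrez Gene 14319, chromosome 19 from 9980600 to 9985111, plus strand, GRCm38) encodes the ferritin heavy chain, which oxidises ferrous iron as it enters the shell. Its CPM ran 1229, 1327, 1348 and 1403 for Sham mice 1 to 4, 3436, 4842, 2189 and 2339 for Vehicle and 1668, 1722, 2120 and 1852 for LJP. The 3 groups did not overlap: every Vehicle mouse lay above every LJP mouse, and every LJP mouse above every Sham mouse. Vehicle minus Sham was 1.27 on the log2 scale (SE 0.21, 2.41-fold, edgeR adjusted p = 0.000985). LJP minus Vehicle was -0.80 (SE 0.21), with an edgeR adjusted p of 0.0678 and a DESeq2 adjusted p of 0.00646. A lower level in LJP than in Vehicle with no overlap was found for 5.91% of all genes. The LJP minus Sham difference was 0.47 (SE 0.21, 95% interval 0.02 to 0.92) with an edgeR adjusted p of 0.239. Fth1 ranked 50th to 62nd among all genes by count in the Sham mice, 1st to 11th in the Vehicle mice and 11th to 25th in the LJP mice.

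Ftl1 (Entrez Gene 14325, chromosome 7 from 45457944 to 45459886, minus strand) encodes the ferritin light chain, which helps the iron core to form. Its CPM ran 221, 244, 247 and 264 for Sham mice 1 to 4, 986, 1863, 692 and 795 for Vehicle and 616, 413, 788 and 406 for LJP. Both tMCAO groups lay above Sham without overlap, whereas LJP mouse 3 lay above Vehicle mouse 3. The Vehicle minus Sham difference was 2.15 on the log2 scale (SE 0.30, 4.45-fold, edgeR adjusted p = 0.000382). Between LJP and Vehicle the log2 difference was -0.96 (SE 0.29), with an edgeR adjusted p of 0.0731 and a DESeq2 adjusted p of 0.0148. Between LJP and Sham the difference was 1.19 (SE 0.29, edgeR adjusted p = 0.0360). That last call was lost without any 1 of the 4 Sham mice, LJP mouse 1 or LJP mouse 3, with log2 fold changes of 0.97 to 1.23 in those fits, and it was lost with the replicate number as a block (edgeR adjusted p = 0.0896).

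Light chain mRNA made up more of the ferritin mRNA in the tMCAO mice than in the Sham mice. Counts per base of Fth1 over those of Ftl1 were 3.57, 3.50, 3.51 and 3.41 in the Sham mice, with a mean of 3.50 ± 0.0646 (SD, n = 4). The ratio was 2.24, 1.67, 2.03 and 1.89 in the Vehicle mice, with a mean of 1.96 ± 0.239 (SD, n = 4). It was 1.74, 2.68, 1.73 and 2.93 in the LJP mice, with a mean of 2.27 ± 0.628 (SD, n = 4). All 8 tMCAO mice lay below all 4 Sham mice, and LJP mice 1 and 3 lay within the Vehicle range while LJP mice 2 and 4 lay above it. This ratio is a description and was not tested. Together the ferritin genes took 0.140% to 0.162% of all counts in the Sham mice, 0.291% to 0.702% in the Vehicle mice and 0.213% to 0.298% in the LJP mice.

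Related genes and pseudogenes could share reads with these genes. The mitochondrial ferritin gene Ftmt and 6 ferritin heavy chain-like genes (Fthl17a to Fthl17f) had 0 counts in all 12 mice. The ferritin pseudogenes Fth-ps2, Fth-ps3, Ftl1-ps1, Ftl1-ps2 and Ftl2-ps were not analysed here, and how reads shared between genes were counted is not given in the sources used here, so the split between ferritin genes and their copies is uncertain.

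Trf (Entrez Gene 22041, chromosome 9 from 103208876 to 103230286, minus strand) encodes transferrin, the carrier of ferric iron, made in the brain mainly by oligodendrocytes and the choroid plexus. Its CPM ran 256, 320, 309 and 327 for Sham mice 1 to 4, 867, 1057, 975 and 978 for Vehicle and 737, 551, 1049 and 429 for LJP. The Vehicle mice were close to each other, with a coefficient of variation of 8.02%, while the LJP mice ranged from 429 CPM, above the highest Sham mouse at 327, to the Vehicle range. Between Vehicle and Sham the difference was 1.68 on the log2 scale (SE 0.22, 3.20-fold, edgeR adjusted p = 0.000257). LJP minus Sham was 1.19 (SE 0.22, 2.28-fold, edgeR adjusted p = 0.00707), and this call survived the removal of any 1 of the 12 mice. The LJP minus Vehicle difference was -0.49 (SE 0.21, 95% interval -0.95 to -0.03) with an edgeR adjusted p of 0.151 and a DESeq2 adjusted p of 0.112.

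The summed CPM of 9 oligodendrocyte markers was 4660 to 5674 in Sham mice, 5875 to 6400 in Vehicle mice and 4679 to 5852 in the LJP mice. Of these 9 markers, Cldn11 and Mobp rose in Vehicle against Sham, and the median log2 fold change of the list was -0.07. LJP mouse 3, the highest LJP mouse for Trf, also had the highest oligodendrocyte sum of its group. The other LJP mice did not keep this order: mouse 1, next for Trf, had a lower sum than mouse 2 (4833 against 5136 CPM). The summed CPM of 8 choroid plexus markers varied widely in every group, from 35.1 to 929 in Sham, 28.5 to 545 in Vehicle and 25.2 to 397 in LJP, and 0 of the 8 were called by edgeR in any comparison. LJP mouse 3 was the highest of its group here too, at 397 CPM, with 28.5, 29.6 and 25.2 in LJP mice 1, 2 and 4. At an unadjusted p below 0.05 there were 0 of these 8 in Vehicle against Sham, 1 in LJP against Vehicle (29.7% of all genes) and 4 in LJP against Sham (18.8% of all genes). The part of these cells in the Trf result was not tested.

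**Figure D2:**
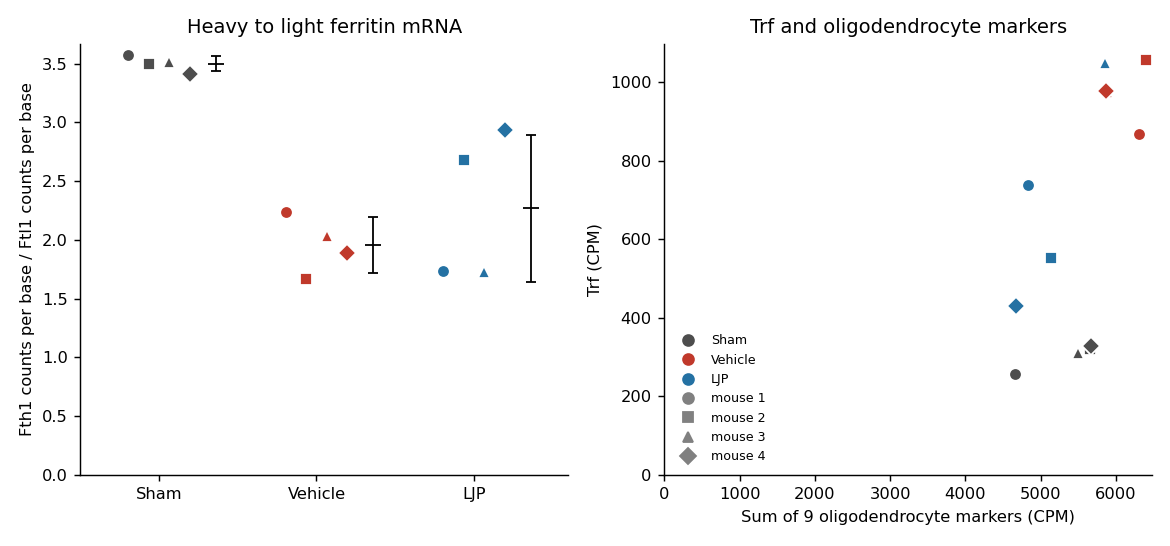
Left, counts per base of Fth1 divided by counts per base of Ftl1 in each mouse, with the mean ± SD of 4 mice; Sham mice lie at 3.41 to 3.57 and Vehicle mice at 1.67 to 2.24. Right, Trf CPM against the summed CPM of 9 oligodendrocyte markers in each mouse, both linear from 0; Trf spans 256 to 1057 CPM while the marker sum spans 4660 to 6400 CPM.

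Tfrc (Entrez Gene 22042, chromosome 16 from 32608896 to 32632794, plus strand) encodes the transferrin receptor, whose mRNA carries the 4 hairpins printed above. Its CPM ran 86.6, 67.4, 71.4 and 77.1 for Sham mice 1 to 4, 100, 72.9, 75.7 and 64.9 for Vehicle and 60.0, 93.7, 86.7 and 110 for LJP. All 3 groups overlapped. Vehicle minus Sham was 0.05 on the log2 scale (95% interval -0.32 to 0.43, edgeR adjusted p = 0.825), which spans folds of 0.801 to 1.34. From Vehicle to LJP the difference was 0.16 (95% interval -0.21 to 0.53, edgeR adjusted p = 0.544) and LJP minus Sham was 0.21 (95% interval -0.16 to 0.58, edgeR adjusted p = 0.561).

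Slc11a2 (Entrez Gene 18174, chromosome 15 from 100387898 to 100424209, minus strand) encodes DMT1, the importer of ferrous iron across the cell and endosome membranes. Its CPM ran 48.4, 45.3, 48.8 and 46.0 for Sham mice 1 to 4, 69.2, 49.4, 52.1 and 48.0 for Vehicle and 46.8, 55.9, 52.8 and 56.6 for LJP. Only Vehicle mouse 1 stood well above the others. Vehicle minus Sham was 0.21 on the log2 scale (95% interval -0.03 to 0.46, edgeR adjusted p = 0.140), LJP minus Vehicle was -0.04 (95% interval -0.29 to 0.20, edgeR adjusted p = 0.805), and LJP minus Sham was 0.17 (95% interval -0.07 to 0.41, edgeR adjusted p = 0.456). Normalized by library size only, Vehicle minus Sham was 0.29 and narrowly passed edgeR's adjusted test. The opposite-strand gene Gm5475, which overlaps Slc11a2, had at most 2 counts in any mouse.

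Slc11a1 (Entrez Gene 18173, chromosome 1 from 74375014 to 74386057, plus strand) encodes NRAMP1, which moves divalent metals out of the phagosomes of macrophages and neutrophils. It had the largest log2 fold change of the 8 tested members in each comparison with Sham. Its CPM ran 2.42, 1.85, 2.85 and 1.66 for Sham mice 1 to 4, 29.7, 33.3, 6.94 and 11.6 for Vehicle and 8.77, 6.70, 10.3 and 5.69 for LJP. Vehicle mice 1 and 2 lay well above the other Vehicle mice, Vehicle mouse 3 lay within the LJP range, and no tMCAO mouse overlapped Sham. A higher level in LJP than in Sham with no overlap was found for 5 members and for 12.9% of all genes. The Vehicle minus Sham difference was 3.22 on the log2 scale (SE 0.46, 9.30-fold, edgeR adjusted p = 0.000424). LJP minus Vehicle was -1.38 (SE 0.41), with an edgeR adjusted p of 0.0729 and a DESeq2 adjusted p of 0.0135. LJP minus Sham was 1.84 (SE 0.45, edgeR adjusted p = 0.0358). That call held in 5 of the 12 leave-one-out fits, and it was lost without any 1 of the 4 Sham mice or LJP mice 1, 2 or 3, where the log2 fold change was 1.69 to 2.00. With the replicate number as a block the edgeR adjusted p was 0.0616.

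Several groups of cell markers differed between the mice along with Slc11a1. The summed CPM of 10 blood-derived myeloid markers was 3.27 to 4.96 in Sham mice, 238, 167, 8.77 and 24.7 in Vehicle mice, and 4.40 to 12.6 in the LJP mice. Of the 10, 4 were tested and all 4 rose in Vehicle against Sham, and Retnlg, Ly6g and F10 were at 0 in all Sham mice. Arg1, Ccr2 and Ms4a7 had 1 to 10, 2 to 6 and 2 to 7 counts per Sham mouse. They passed the filter on low counts mainly through the tMCAO mice, which all but set their rise in advance, so it is given as a description. The summed CPM of 8 microglia markers was 304 to 309 in Sham, 419, 748, 806 and 840 in Vehicle mice 1 to 4, and 861, 514, 863 and 521 in LJP mice 1 to 4. Of these, 6 rose in Vehicle against Sham and 6 in LJP against Sham, where 22.7% and 3.85% of all genes rose. With edgeR, 0 of the 8 were called in LJP against Vehicle, and 0 had an unadjusted p below 0.05. Among the Vehicle mice, mice 1 and 2 were highest for Slc11a1 and for the myeloid, erythroid and endothelial sums, and lowest for the neuron sum. Mouse 1 was lowest for the microglia sum. Among the LJP mice, mice 1 and 3 were highest for Slc11a1 and for the microglia and myeloid sums. They were also highest for the erythroid, endothelial and astrocyte marker sums, and lowest for the neuron sum. The part of these cells in the Slc11a1 result was not tested.

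Slc40a1 (Entrez Gene 53945, chromosome 1 from 45908070 to 45926532, minus strand) encodes ferroportin, the exporter of cellular iron. Its CPM ran 7.44, 6.48, 6.69 and 8.60 for Sham mice 1 to 4, 7.12, 16.5, 9.85 and 9.21 for Vehicle and 10.3, 7.06, 9.84 and 6.41 for LJP. All 3 groups overlapped, and Vehicle mouse 2 was the highest mouse. Between Vehicle and Sham the difference was 0.55 on the log2 scale (95% interval 0.02 to 1.07, edgeR adjusted p = 0.0896). It was 0.25 without Vehicle mouse 2 and 0.70 without Vehicle mouse 1, and only the latter fit called it (edgeR adjusted p = 0.0364). LJP minus Vehicle was -0.34 (95% interval -0.87 to 0.18, edgeR adjusted p = 0.344) and LJP minus Sham was 0.20 (95% interval -0.33 to 0.73, edgeR adjusted p = 0.717).

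Cp (Entrez Gene 12870, chromosome 3 from 19956933 to 20009750, plus strand) encodes ceruloplasmin, the copper ferroxidase that prepares exported iron for transferrin and sits on astrocytes in the brain. Its CPM ran 11.5, 9.70, 8.88 and 10.8 for Sham mice 1 to 4, 35.3, 85.7, 22.0 and 19.7 for Vehicle and 15.2, 13.3, 24.9 and 16.8 for LJP. Vehicle mouse 2 was the highest of all mice, and LJP mouse 3 lay within the Vehicle range. Vehicle minus Sham was 2.00 on the log2 scale (SE 0.40, 3.99-fold, edgeR adjusted p = 0.00276), and without Vehicle mouse 2 it was 1.32 and still called (edgeR adjusted p = 0.0111). LJP minus Vehicle was -1.21 (SE 0.39, edgeR adjusted p = 0.0828, DESeq2 adjusted p = 0.0199), and without Vehicle mouse 2 it was -0.55. The LJP minus Sham difference was 0.78 (SE 0.40, 95% interval -0.08 to 1.65, edgeR adjusted p = 0.321).

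The sum of 7 astrocyte markers was 3736 to 4198 CPM in Sham, 3587 to 5622 in Vehicle and 4387 to 5625 in LJP. Within it, Gfap rose by 3.87 on the log2 scale (141 to 2066 CPM) and Aldh1l1 by 1.12 in Vehicle against Sham, while Slc1a2 fell by 0.76 (2983 to 1765 CPM), and the other 4 were not called. The sum of 7 endothelial markers was 223 to 240 CPM in Sham, 221 to 280 in LJP, and 677, 1446, 312 and 371 in the Vehicle mice, with mouse 2 highest as it was for Cp. Hps3, on the opposite strand, overlaps Cp. It had 834, 1236 and 1065 counts summed over the Sham, Vehicle and LJP mice, and since the strand setting of the counting is not given in the sources used here, some reads could belong to either gene. The part of these genes and cells in the Cp result was not tested.

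Hamp (Entrez Gene 84506, chromosome 7 from 30942368 to 30944029, minus strand) encodes hepcidin, the hormone that removes ferroportin from the cell surface and is made mainly in the liver. It had 0 counts in 11 mice and 1 count in LJP mouse 4. A count of 0 allows a level of up to 3 counts, which is 0.129 to 0.173 CPM per mouse and covers counting error only, so a level below that was not detectable at this depth. The exact permutation test, two-sided on log2(CPM + 0.5), gave p = 1 for each pair of groups. With at most 1 mouse above 0 in a pair, every relabelling of the mice gives the same absolute difference. The test could thus give no other p, and it says nothing about a difference in Hamp. The related gene Hamp2 had 7, 5 and 8 counts summed over the Sham, Vehicle and LJP mice.

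**Figure D3:**
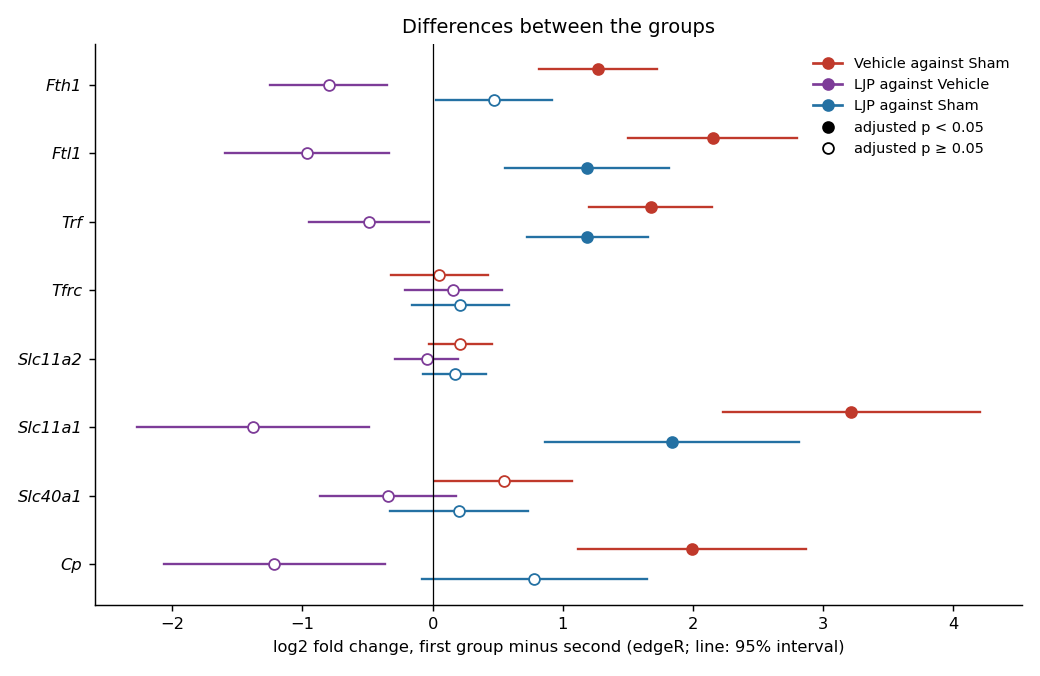
Log2 fold change of the 8 tested members in each comparison (points, edgeR over all 12 mice) with 95% intervals (lines), filled where the adjusted p is below 0.05. In this plot 5 filled points lie above 0 in Vehicle against Sham and 3 in LJP against Sham, while none is filled in LJP against Vehicle, where Slc11a1 has the lowest value, -1.38.

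Compared per kilobase of the exon length in the count table, the members fell into an order with Fth1 first in every group. In the Sham mice, mean CPM per kilobase was 878 for Fth1, 251 for Ftl1, 130 for Trf, 14.7 for Tfrc, 7.16 for Slc11a2, 2.09 for Slc40a1, 1.40 for Cp and 0.853 for Slc11a1. No neighbours in that order overlapped between mice. In the Vehicle mice the order was Fth1 (2119), Ftl1 (1117), Trf (416), Tfrc (15.2), Slc11a2 (8.31), Slc11a1 (7.92), Cp (5.56) and Slc40a1 (3.06). There Fth1 overlapped Ftl1, and the last 4 genes overlapped their neighbours. In the LJP mice it was Fth1 (1218), Ftl1 (573), Trf (297), Tfrc (17.01), Slc11a2 (8.06), Slc11a1 (3.05), Slc40a1 (2.41) and Cp (2.40), with overlap between Ftl1 and Trf and among the last 3. Slc11a1, lowest of the 8 in Sham, thus held the sixth place in both tMCAO groups.

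Blood cell markers differed between the groups. The summed CPM of 7 erythroid markers was 3.89 to 5.99 in Sham, 89.4, 51.2, 9.80 and 14.4 in the Vehicle mice, and 5.42 to 8.92 in LJP. All 5 that were tested rose in Vehicle against Sham. Of those, Hba-a2 and Hbb-bt had 0 to 10 and 3 to 9 counts per Sham mouse. They passed the filter on low counts mainly through the tMCAO mice, which all but set their rise in advance. Epb42 was at 0 in every Sham and LJP mouse. Of 7 endothelial markers 5 rose, and of 8 microglia markers 6 rose, in the same comparison, where 22.7% of all genes rose. In LJP against Vehicle edgeR called 0 of these markers, and 6 of 7 endothelial (median log2 fold change -1.31), 5 of 5 tested erythroid (median -2.54), 2 of 4 tested myeloid (median -1.64) and 0 of 8 microglia markers (median 0.03) had an unadjusted p below 0.05. Over all genes tested, 29.7% had such a p, and 17.4% had it with a lower level. The endothelial sum put the Vehicle mice in the same order as Fth1 and Ftl1, and the neuron sum put them in the reverse order. Erythroid, myeloid, endothelial and microglial cells all contain ferritin, and their part in the ferritin results was not tested.

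Leaving out 1 mouse at a time kept all 5 calls of Vehicle against Sham in all 12 fits. Between LJP and Vehicle, the same 4 genes that DESeq2 called (Fth1, Ftl1, Cp and Slc11a1) passed edgeR's adjusted test without Vehicle mouse 3 and again without Vehicle mouse 4, and no member passed in the other 10 fits. Over all genes, those fits called 3857 and 2095 genes, against 4 with all 12 mice. Without Vehicle mouse 2, LJP minus Vehicle was nearer to 0 for those 4 genes, at -0.53 for Fth1, -0.57 for Ftl1, -0.55 for Cp and -1.04 for Slc11a1. The same fit added Fth1 (edgeR adjusted p = 0.0291) and Cp (edgeR adjusted p = 0.0325) to the calls of LJP against Sham, as did a fit of those groups alone, which called 4043 genes in all.

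**Figure D4:**
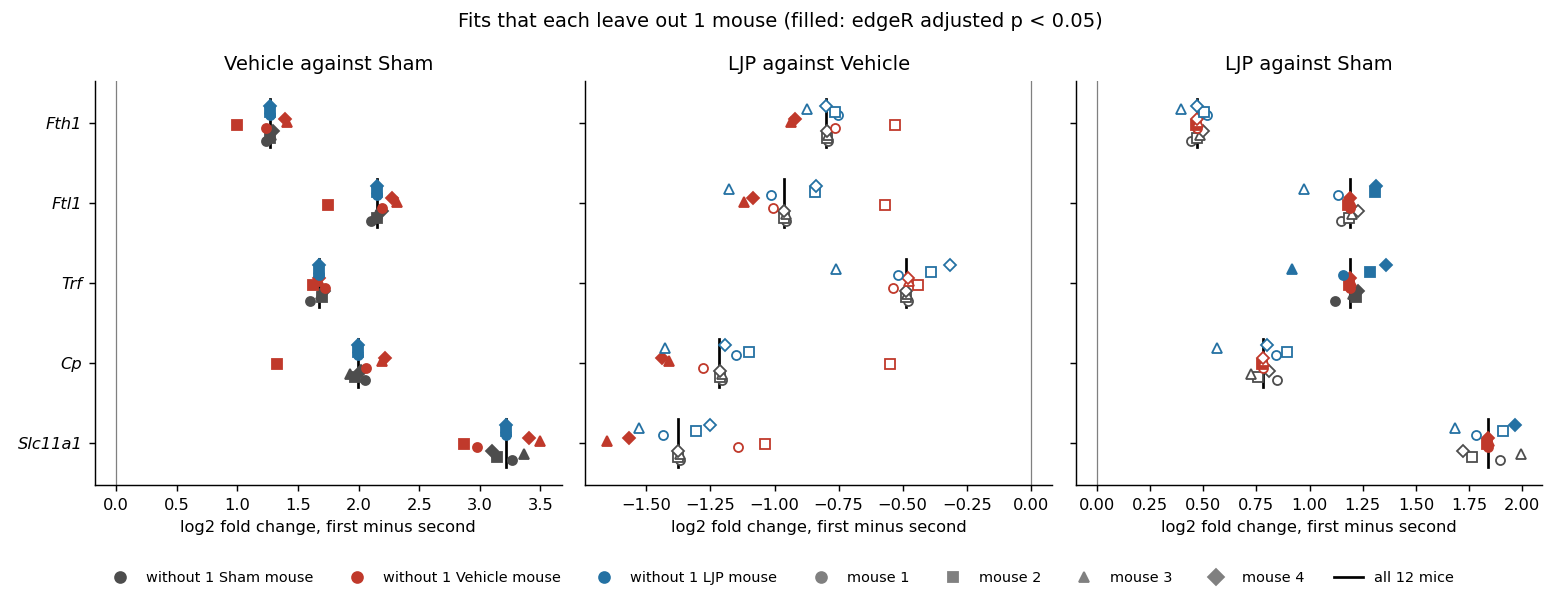
Log2 fold changes of Fth1, Ftl1, Trf, Cp and Slc11a1 in fits that each leave out 1 of the 12 mice (points, coloured by the group of the mouse left out, shape giving its number, filled where the edgeR adjusted p is below 0.05), with the fit of all 12 mice as a black line. All points are filled in Vehicle against Sham; in LJP against Vehicle the filled points are those without Vehicle mouse 3 or 4, and the points nearest to 0 for Fth1, Ftl1, Cp and Slc11a1 are those without Vehicle mouse 2.

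Other genes of iron handling were examined as 6 lists. Among 13 genes of iron sensing and ferritin handling, 4 rose and 2 fell in Vehicle against Sham. Hfe, a partner of the transferrin receptors, rose by 1.96 on the log2 scale (SE 0.26), Aco1, which encodes iron regulatory protein 1, by 0.48 (SE 0.10), and Slc39a14, an importer of iron not bound to transferrin, by 1.303 (SE 0.29). In LJP against Sham, Hfe alone of the 13 was called, at 1.10 (SE 0.26, edgeR adjusted p = 0.0309), and Skp1 (-0.20) and Herc2 (-0.17) had the next smallest p-values. The values of LJP minus Vehicle with the smallest p-values were -0.39 for Aco1, -1.01 for Slc39a14 and -0.86 for Hfe.

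Of 9 tested ferroxidases and ferrireductases, 4 rose and none fell in Vehicle against Sham. Frrs1, a ferric reductase, rose by 2.24 (SE 0.30), Cybrd1, the duodenal cytochrome b reductase, by 1.63 (SE 0.24), and Steap3, the endosomal ferrireductase of transferrin uptake, by 1.499 (SE 0.29). Frrs1 and Cybrd1 were the 2 called in LJP against Sham, at 1.64 (SE 0.30, edgeR adjusted p = 0.00710) and 1.57 (SE 0.24, edgeR adjusted p = 0.00294). The value of Steap1 there was -1.99 and was not called. Between LJP and Vehicle the log2 difference was -2.55 for Steap4, -2.79 for Steap1 and -0.91 for Steap3. Steap1 had 0 to 11 counts per LJP mouse.

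Carriers of iron, heme and siderophores included the highest log2 fold change of the 6 lists, that of Lcn2. Of 22 tested, 14 rose and 1, Slc25a37, fell in Vehicle against Sham. Lcn2, which binds bacterial iron-siderophore complexes, was at 0.536 CPM in Sham, 76.5 in Vehicle and 10.9 in LJP on average. The Vehicle mice had 166, 107, 16.5 and 16.7 CPM of it and the LJP mice 4.996 to 13.9, with no overlap. It rose by 7.15 on the log2 scale (SE 0.91) in Vehicle against Sham, or 6.43 without Vehicle mouse 1. In LJP against Sham it rose by 4.34 (SE 0.90, edgeR adjusted p = 0.0162), a call lost without any 1 of the 4 Sham mice. Hmox1, which releases iron from heme, was at 3.85 CPM in Sham, 170 in Vehicle and 18.2 in LJP, and rose by 5.46 (SE 0.76) in Vehicle against Sham. Its Vehicle values were 273, 315, 32.1 and 58.0 CPM, and LJP mouse 3, at 35.95 CPM, lay within their range. Blvrb, which reduces biliverdin, rose by 1.55 (SE 0.30). The LJP minus Vehicle difference was -3.23 for Hmox1 (SE 0.66), -4.31 for Hp, the plasma scavenger of hemoglobin (SE 0.89), and -2.81 for Lcn2 (SE 0.66), all 3 at an edgeR adjusted p of 0.0678. Hp was at 26.4, 15.7, 1.02 and 2.69 CPM in the Vehicle mice, and its value without Vehicle mouse 1 was -3.50, while that of Lcn2 was -2.10. All 3 passed edgeR's adjusted test when either Vehicle mouse 3 or Vehicle mouse 4 was left out. In LJP against Sham, Slc25a37, the mitochondrial iron importer, fell by 0.32 (SE 0.09, edgeR adjusted p = 0.0497), a call lost without Sham mouse 1, 2 or 3 or any LJP mouse, and the value for Hpx, which binds heme, was 2.01 (SE 0.53) and was not called.

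Of 21 tested genes of hepcidin regulation, 8 rose and 2 fell in Vehicle against Sham, while Hamp itself had 1 count over all mice. Stat3 rose by 1.79 (SE 0.29), Il6ra by 1.84 (SE 0.32) and Furin by 1.39 (SE 0.27), and Tmprss6, the protease that restrains hepcidin, was among those that fell. From Vehicle to LJP the difference was -1.16 for Id1, -0.98 for Furin and -1.01 for Stat3. Between LJP and Sham the difference was -0.32 for Bmpr2, 0.99 for Il6ra and -0.97 for Tmprss6, none of them called.

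Mitochondrial iron genes had small differences. Of 23 genes of mitochondrial iron and iron-sulfur clusters, 5 rose and 3 fell in Vehicle against Sham, with a median log2 fold change of 0.13. Alas1, the first enzyme of heme synthesis, rose by 0.44 (SE 0.08), Iscu, the scaffold of cluster assembly, by 0.29 (SE 0.07), and Cisd2 fell by 0.31 (SE 0.08). LJP minus Vehicle was -0.36 for Glrx5, -0.25 for Alas1 and 0.38 for Lyrm4. LJP minus Sham was 0.22 for Iscu, -0.21 for Cisd1 and 0.18 for Alas1.

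Of 17 genes of lipid peroxide defence and ferroptosis, 11 rose and 1, Alox15, fell in Vehicle against Sham. Alox5, a lipoxygenase of myeloid cells, rose by 3.20 (SE 0.47), Gss, a glutathione synthesis enzyme, by 0.68 (SE 0.11), and Slc3a2, a subunit of the cystine importer, by 1.02 (SE 0.16). LJP minus Vehicle was -2.22 for Alox5, -0.79 for Gclm and -0.68 for Slc3a2. LJP minus Sham was 0.38 for Gss, 0.57 for Lpcat3 and 0.93 for Gch1, none of them called.

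Read against the background of 39.9% called in Vehicle against Sham, the 6 lists had 6 of 13, 4 of 9, 15 of 22, 10 of 21, 8 of 23 and 12 of 17 genes called, in the order above. For LJP against Vehicle edgeR called 0 genes in each list. At an unadjusted p below 0.05 there were 3, 7, 13, 8, 5 and 12 genes (29.7% of all genes), and DESeq2 called 3, 4, 9, 6, 1 and 8 (13.2% of all genes). The edgeR counts depended on single Vehicle mice. In the fit without mouse 3 the lists had 3, 5, 11, 8, 2 and 12 genes called, where 3857 were called over all genes, against 4 with all 12 mice. In the fit without mouse 4 they had 3, 4, 9, 7, 1 and 8, and its total over all genes, given above, had risen too. For LJP against Sham, edgeR called 1, 2, 2, 0, 0 and 0 genes (4.75% of all genes), 2, 3, 4, 6, 3 and 5 had an unadjusted p below 0.05 (18.8% of all genes), and DESeq2 called 1, 2, 4, 3, 1 and 1 (7.55% of all genes). Those edgeR counts also depended on single mice: the call among the 13 genes of iron sensing, that of Hfe, was lost without any 1 of the 4 Sham mice or LJP mouse 3, and with the replicate block. Of the 22 carriers, 0 were called without Sham mouse 1, 2 or 3, 1 without Sham mouse 4 or any LJP mouse and with the block, and 4 without Vehicle mouse 2. A fit of the LJP and Sham mice alone called 2, 2, 5, 8, 4 and 6 genes in the 6 lists and 4043 genes in all, against 834 with all groups, so the counts of 0 in the last 3 lists depended on the fit. Among the ferroxidases and ferrireductases, 2 genes were called in each of the 12 fits.

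**Figure D5:**
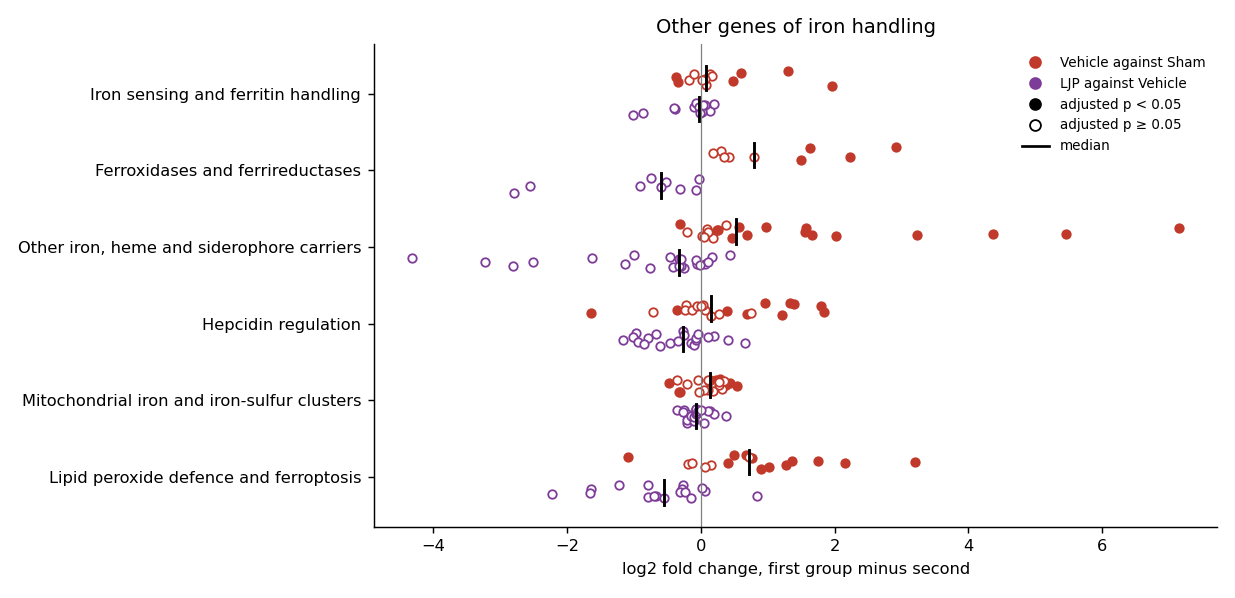
Log2 fold changes of the tested genes of 6 iron-related lists in Vehicle against Sham and LJP against Vehicle (points, filled where the edgeR adjusted p is below 0.05), with the median of each list as a black bar. Points are spread vertically at random for legibility; Lcn2 has the highest value, 7.15 in Vehicle against Sham, and no point is filled in LJP against Vehicle.

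The genes whose pattern over the 12 mice lay closest to each risen member are given as a description, with likeness measured as the root mean square difference of log2 CPM after centring each gene on its Sham mean. For Fth1 they were Rpl18 (0.0907) and Mcl1 (0.104), and for Ftl1 they were Jpt2 (0.119) and Efemp2 (0.135). For Trf they were Dock8 (0.165) and Abca1 (0.185), for Cp Iqgap1 (0.208) and Rai14 (0.209), and for Slc11a1 Galnt15 (0.233) and Mt2 (0.240). The patterns of Trf, Cp and Slc11a1 were thus matched less closely than those of the ferritin genes.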

How the data were processed

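RNA from the ischemic hemispheres of 12 mice was sequenced (Sham, Vehicle and LJP, 4 mice a group). By the study's methods, poly(A) RNA was used for paired-end libraries. The authors deposited a table of raw read counts per gene and mouse, with each gene's position and length in bases. The submitters' processing notes name featureCounts and DESeq2 and the builds GRCm39 and mm10; gene positions in the deposited table matched GRCm38 (the same assembly as mm10) for 39730 of 39756 genes. The aligner, strand setting and handling of shared reads are not given in the sources used here.

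The comparisons used edgeR 4.0.16 under R 4.3.3. After filterByExpr and TMM normalization, 1 quasi-likelihood fit of the 12 mice with group as the only term tested 17558 genes, with Benjamini-Hochberg adjustment. CPM were computed from the deposited counts on TMM library sizes, and levels per kilobase used the deposited lengths. Hamp was compared by an exact permutation test. The fit was checked on simulated counts. Alternatives were DESeq2 1.42.0, RLE and library-size normalization, no filter, only the 2 groups compared, a replicate block, the study's thresholds applied to edgeR values (absolute log2 fold change over 0.58, unadjusted p below 0.01), other constants added to CPM for Hamp, and leaving out each mouse. IREs were searched in GENCODE transcripts. Plots used Python 3.11.15 and matplotlib 3.10.9.

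Samples were grouped by their labels. P-values measure the spread between mice. The closest mice of a group differed by more than sampling noise (chi-square over its degrees of freedom 2.56 or more). Intervals and floors cover counting error only where they refer to a count of 0.

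The members, the gene lists and the cell type markers were chosen with earlier results of these data known. Named were all 9 members, in every iron-related list and comparison the 3 genes of smallest p, and the 2 genes nearest in pattern to each member called between Vehicle and Sham. Single genes of the marker lists, and of the iron-related lists Slc25a37, Tmprss6, Alox15, Il6 and Ltf, were also named, after their values were seen. Skp1a was matched as Skp1, and Sdr2 was not used here. The level of 1 erythroid marker is not reported here.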

Additional observations from a re-analysis of the deposited data

Results flagged for a closer look

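In the 24 groups of 4 mice (8 members in 3 groups), the highest and the lowest mouse were compared with the others by Dixon's ratio of gap to range. None passed Dixon's critical value for 4 samples, which chance alone passes in about 5% of groups.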

How the results depend on the processing

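The 8 tested members in 3 comparisons gave 432 values of log2 fold change under the alternatives. Of these, 394 kept their direction and their side of the threshold, 15 kept their direction and lost the call, 19 kept their direction and gained one, and 4 reversed. The reversed values belong to differences near 0 that were never called: Tfrc in Vehicle against Sham (-0.0015 without Sham mouse 2; -0.088 without Vehicle mouse 1 to 0.13 without Vehicle mouse 4) and Slc11a2 in LJP against Vehicle (0.013 without LJP mouse 1; -0.10 without Vehicle mouse 4 to 0.090 without Vehicle mouse 1).

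In Vehicle against Sham, 5 members were called and every alternative gave 5 or 6. In LJP against Vehicle, 0 members were called with edgeR, 4 with DESeq2, 1 (Fth1, among 593 genes in all) without the filter on low counts, 4 at the study's thresholds on edgeR values, and 0 to 4 when 1 mouse was left out. In LJP against Sham, 3 members were called, 5 (Fth1 and Cp added, among 4043 genes in all) when only those groups were fitted, 1 (Trf) with the replicate block, and 1 to 5 when 1 mouse was left out. The cause of these shifts was not tested. Over all genes, leaving out 1 mouse moved the calls from 7014 to between 5285 and 8200 in Vehicle against Sham, from 4 to between 3 and 3857 in LJP against Vehicle, and from 834 to between 393 and 2357 in LJP against Sham. DESeq2 called 2307 genes in LJP against Vehicle and 1454 in LJP against Sham, and the replicate block 2 and 464.

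The replicate numbers did not pair the mice: deviations of same-numbered mice correlated at -0.38 to 0.15 over 12 pairs, 1 pair was over 0.1, and 0 of 12 mice correlated best with their own number. The replicate block gave 6110 calls in Vehicle against Sham. Among the members it ended the calls of Ftl1 and Slc11a1 in LJP against Sham and no other. In the 6 lists it gave 5, 4, 14, 9, 7 and 11 calls in Vehicle against Sham, from 6, 4, 15, 10, 8 and 12. Depth limits Hamp alone among the members. With 4 mice a group, the coefficient of variation of Fth1, Ftl1, Trf, Cp and Slc11a1 was 5.48%, 7.23%, 10.7%, 11.3% and 24.7% in Sham, 38.3%, 49.2%, 8.02%, 75.7% and 63.9% in Vehicle, and 10.97%, 33.0%, 39.0%, 29.0% and 26.2% in LJP.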

Other observations

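The LJP mice differed among themselves, for some members alike and for others not. LJP mice 1 and 3 had 616 and 788 CPM of Ftl1, 737 and 1049 of Trf and 8.77 and 10.3 of Slc11a1, whereas mice 2 and 4 had 413 and 406, 551 and 429, and 6.70 and 5.69. Slc40a1 was also higher in mice 1 and 3 (10.3 and 9.84 against 7.06 and 6.41). Fth1 (1668 and 2120 against 1722 and 1852) and Cp (15.2 and 24.9 against 13.3 and 16.8) did not separate these mice. The microglia marker sum was 861 and 863 CPM in mice 1 and 3 and 514 and 521 in mice 2 and 4. The myeloid, erythroid, endothelial and astrocyte marker sums were also higher in mice 1 and 3, and the neuron sum was lower. Tfrc and Slc11a2 went the other way. Tfrc was at 60.0 and 86.7 CPM in mice 1 and 3 against 93.7 and 110 in mice 2 and 4, and Slc11a2 at 46.8 and 52.8 against 55.9 and 56.6. The labels name no difference between these mice, and no test was made on them.

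Some genes of the lists had too few counts to be tested and are given as sums. Il6, a driver of hepcidin, had 1, 72 and 2 counts summed over the Sham, Vehicle and LJP mice. Ltf, the iron-binding lactoferrin of neutrophils, had 3, 33 and 1.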
